A study of Mus musculus with 9 samples.

Results

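The CC chemokines described here are 10 genes of the mouse kidney expression table, Ccl2, Ccl3, Ccl4, Ccl5, Ccl6, Ccl7, Ccl8, Ccl9, Ccl12 and Ccl19. They were found by gene name among the 21935 genes of the table, where they take up 11 entries because Ccl19 is listed at a pair of places in the assembly. Kidney RNA was sequenced in 9 libraries, 3 per group, to ask how the kidney transcriptome of mice with pristane-induced lupus (PIL) differs from that of control mice and of pristane-treated mice that lack GSDMD. All mice were C57BL/6 and are labelled female. The control group (Con) was WT and was given 0.5 ml of saline, the PIL group was WT and was given 0.5 ml of pristane, and the Gsdmd-/- group (GKO) carried a knockout of Gsdmd in all cells. Injections were made at 4 weeks of age and kidneys were taken 31 weeks later. Pristane is a hydrocarbon oil that produces a lupus-like disease after injection into the peritoneum, and GSDMD is the pore-forming protein of pyroptosis. The labels give none as the treatment of the Gsdmd-/- and control libraries, while the study's text describes the Gsdmd-/- animals as pristane-treated and the controls as given saline. Nothing in the sources used here states that the 3 libraries of a group are from different mice, so the p-values measure the spread between libraries, which may in part be technical.

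CC chemokines are small secreted proteins with a pair of adjacent cysteines near the amino terminus, and they guide leukocytes along gradients through G protein-coupled receptors on the leukocyte surface. CCR2 and its ligands draw monocytes out of the bone marrow and into inflamed tissue, CCR1 guides monocytes and macrophages, and CCR7 guides dendritic cells and naive T cells to lymphoid tissue. In lupus nephritis the monocyte-attracting members, above all CCL2, are known for their link to leukocyte infiltration of the kidney.

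Of the 10 genes, 9 lie on chromosome 11 in a pair of groups, in GRCm38 coordinates as the table gives them. Ccl2, Ccl7, Ccl12 and Ccl8 lie in this order on the plus strand from 82035571 to 82116799, with Ccl11 between Ccl7 and Ccl12, and Ccl5, Ccl9, Ccl6, Ccl3 and Ccl4 lie between 83525778 and 83664683, the first 4 of them on the minus strand. Ccl19 lies apart on chromosome 4, from 42754525 to 42756577 on the minus strand. The 250 bases before the transcription start of Ccl12 (chr11:82101595-82101844, plus strand), Ccl8 (chr11:82114935-82115184, plus strand) and Ccl9 (chr11:83578637-83578886, minus strand), from RefSeq's annotation of GRCm38.p6, are shown because they belong to the genes with the widest spread among the PIL libraries of those with a matched promoter, and because each holds TATAAA. Capitals mark TATAAA in all 3 and, in Ccl9, also the match to the kappaB consensus.
Ccl12 promoter: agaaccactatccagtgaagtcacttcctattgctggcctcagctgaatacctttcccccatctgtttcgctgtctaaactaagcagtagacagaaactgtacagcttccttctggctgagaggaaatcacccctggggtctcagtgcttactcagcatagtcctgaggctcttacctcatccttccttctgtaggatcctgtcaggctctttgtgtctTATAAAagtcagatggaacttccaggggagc
Ccl8 promoter: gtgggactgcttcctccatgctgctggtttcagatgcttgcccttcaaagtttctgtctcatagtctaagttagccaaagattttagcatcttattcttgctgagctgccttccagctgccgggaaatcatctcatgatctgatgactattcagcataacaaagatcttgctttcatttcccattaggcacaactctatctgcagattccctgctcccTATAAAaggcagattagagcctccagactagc
Ccl9 promoter: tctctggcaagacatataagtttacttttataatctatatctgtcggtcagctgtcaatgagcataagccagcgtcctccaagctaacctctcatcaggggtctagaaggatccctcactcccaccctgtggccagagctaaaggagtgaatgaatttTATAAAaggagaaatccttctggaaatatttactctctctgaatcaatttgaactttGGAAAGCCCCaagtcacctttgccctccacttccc

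Promoters of 6 of the 10 genes (Ccl3, Ccl6, Ccl8, Ccl9, Ccl12 and Ccl19) were matched by symbol. Each was searched for 3 motifs, in a window of 250 bases before to 50 bases after the start, on both strands for the kappaB and interferon motifs and on the gene's own strand for the TATA box (TATAAA). The TATA box was found in 3 of the 6, from -32 to -27 in Ccl8, from -31 to -26 in Ccl12 and from -92 to -87 in Ccl9, and in 8.32% of all 32851 promoters of the same length. The consensus of the NF-kappaB binding site was found in 1 of the 6, Ccl9, from -35 to -26 as GGAAAGCCCC (the consensus reads on the opposite strand), and in 8.46% of all promoters. The core of the interferon response element (GAAA, any 2 bases and GAAA again) was found in 1 of the 6, Ccl19, from -208 to -199, and in 3.44% of all promoters. None of these matches overlapped another. On the opposite strand TATAAA was found in Ccl9 from -224 to -219 and from -94 to -89, the latter overlapping the site marked above, and 13.6% of all promoters held it on either strand.

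Library totals ran from 13311063 to 16299328 counts, and the 11 entries together held 155 to 3207 counts per library. Values are given below as CPM (counts relative to library size, with libraries scaled by the trimmed mean of M-values, TMM), with raw counts where a gene had few reads. Several facts of the libraries touch the results. Gsdmd was at 2.06, 2.04 and 1.61 CPM in the Gsdmd-/- libraries and at 6.56, 20.1 and 10.7 CPM in the PIL libraries, so it was lower in every Gsdmd-/- library. Transcripts of 4 Y-linked genes (Kdm5d, Uty, Ddx3y and Eif2s3y) summed to 136, 140 and 208 CPM in the control libraries and were at 0 in the other 6, against the label female for all mice. Every comparison with the control group may therefore differ in the sex of the mice, not only in these 4 genes, as well as in treatment. Gsdmd-/- against control differs in genotype too. The parts of sex, treatment and genotype in these comparisons cannot be told apart. In a principal component analysis of all genes tested, the first component (41.7% of the variance) placed PIL replicates 1 and 2 at 84.1 and 49.7, and PIL replicate 3 at -0.133, near the 6 libraries of the other groups, which lay between -43.8 and -12.2. The 9 kidney tubule and podocyte markers summed to 10853 to 12317 CPM in control, 6809 to 13549 CPM in PIL and 13203 to 13433 CPM in Gsdmd-/- libraries, lowest in PIL replicate 1. In bulk RNA of whole kidney, more cells of a type and more RNA per cell cannot be told apart.

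PIL kidneys held more mRNA of several CC chemokines than control kidneys. Genes were tested with edgeR's quasi-likelihood F-test, adjusted by Benjamini-Hochberg over the 14069 genes that passed a filter on low counts, and were called at an adjusted p under 0.05. Of the 10 genes, 8 passed the filter, and Ccl7 and Ccl19 did not. Ccl2, Ccl3, Ccl6 and Ccl9 rose, none fell, and 6 of the 8 were higher at an unadjusted p under 0.05. Over all genes tested 4.48% were called higher and 15.4% were higher at an unadjusted p under 0.05. The median log2 fold change of the 8 was 2.53, beside 0.01 over all genes. The PIL and control libraries did not overlap for 5 of the 8 (Ccl2, Ccl3, Ccl4, Ccl6 and Ccl9), all higher in PIL, beside 13.4% of all genes.

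Gsdmd-/- kidneys had lower values than PIL kidneys for each of the 8 chemokines (median log2 fold change -2.57, and -0.00065 over all genes), yet edgeR called 0 of the 8, and 0% of all genes as lower. All 8 were lower at an unadjusted p under 0.05, as were 13% of all genes. The lowest adjusted p of a chemokine was 0.127, and the lowest over all genes was 0.111. For 5 of the 8 (Ccl2, Ccl4, Ccl5, Ccl6 and Ccl9) every Gsdmd-/- library lay under every PIL library, beside 14.1% of all genes. The other tools gave calls. DESeq2 called 6 of 9 chemokines with an adjusted p lower (Ccl2, Ccl5, Ccl6, Ccl7, Ccl8 and Ccl9), beside 4.82% of genes, and limma-voom with sample quality weights called 7 of 8 (all but Ccl5), beside 22.8% of genes. The weights of PIL replicates 1, 2 and 3 were 0.245, 6.24 and 0.285. All limma-voom results for the PIL group, here and below, thus rest mostly on PIL replicate 2. This comparison and the one of PIL with control share the PIL libraries, so opposite signs in both are not separate evidence.

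Between Gsdmd-/- and control kidneys edgeR called 0 of the 8 chemokines, while it called 3.01% of all genes in either direction. DESeq2 and limma-voom also called 0, and at an unadjusted p under 0.05 there were 1 higher (Ccl3) and 1 lower (Ccl12). Of all genes, DESeq2 called 5.47% and limma-voom 15.6%, and 7.68% were higher and 6.93% lower at an unadjusted p under 0.05. The median log2 fold change was -0.06. Ccl3 and Ccl6 were higher in every Gsdmd-/- library than in every control library, beside 13.3% of all genes that did not overlap in this direction, and Ccl8 was lower in every one, beside 11.5% of all genes.

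**Figure D1:**
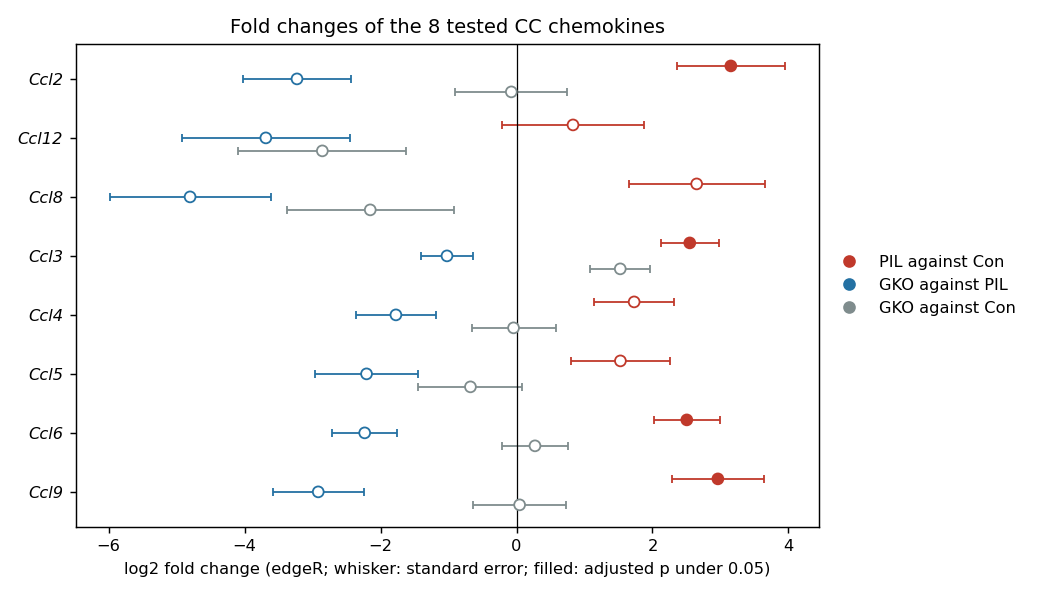
Log2 fold changes (horizontal axis) of the 8 CC chemokines that passed the filter in the 3 comparisons, from edgeR, with standard errors as whiskers and filled points for an adjusted p under 0.05. In PIL against control all 8 points lie above 0 and 4 are filled, in GKO against PIL all 8 lie under 0 and none is filled, and in GKO against control 3 lie above 0 and 5 under it.

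The CCR2 ligands were Ccl2, Ccl7 and Ccl12, all in the first of these groups on chromosome 11. Ccl2 (ENSMUSG00000035385) encodes the prototype monocyte attractant MCP-1. It stood at 2.28, 2.24 and 0.813 CPM in the control libraries, at 24.6, 18.9 and 3.68 CPM in PIL and at 2.54, 0.303 and 2.14 CPM in Gsdmd-/-. Every PIL library lay above all 6 others, and PIL replicate 3 was the nearest to them. The means were 1.78 ± 0.835, 15.7 ± 10.8 and 1.66 ± 1.19 CPM (SD, n = 3). In PIL kidneys Ccl2 rose by 3.15 ± 0.79 on the log2 scale (SE; edgeR adjusted p = 0.0446). The comparison of Gsdmd-/- with PIL gave -3.23 ± 0.79 (edgeR adjusted p = 0.13), and Gsdmd-/- against control gave -0.08 ± 0.82 (edgeR adjusted p = 0.984), so the Gsdmd-/- mean was within 1 SE of the control mean. The call in PIL kidneys held in 7 of the 17 settings tried, that of the text included. Of the libraries left out in turn, it held without PIL replicate 3 and without Gsdmd-/- replicate 2, and the other 7 gave adjusted p-values of 0.0704 to 0.128 in edgeR.

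Ccl7 (ENSMUSG00000035373), which encodes MCP-3, had few reads outside the PIL group. Its raw counts were 6, 7 and 1 in control, 133, 76 and 7 in PIL and 4, 2 and 1 in Gsdmd-/- libraries. PIL replicates 1 and 2 stood apart from the rest, and PIL replicate 3 equalled the highest control library in raw counts. With no filter on low counts, edgeR gave 3.58 ± 0.91 for PIL against control (adjusted p = 0.0482), -4.59 ± 0.99 for Gsdmd-/- against PIL (adjusted p = 0.132) and -1.01 ± 1.15 for Gsdmd-/- against control (adjusted p = 0.789). The fit without the filter called Ccl7 and lost Ccl2, whose adjusted p became 0.0528.

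Ccl12 (ENSMUSG00000035352) encodes MCP-5, a monocyte attractant described in the mouse. It was at 1.98, 11.5 and 0.474 CPM in control, 14.7, 9.0 and 0.902 CPM in PIL and 0.959, 0.606 and 0.334 CPM in Gsdmd-/- libraries. Control replicate 2 lay between PIL replicates 1 and 2, and PIL replicate 3 lay inside the Gsdmd-/- range, so the groups overlapped in every comparison. PIL against control gave 0.83 ± 1.04 on the log2 scale (edgeR adjusted p = 0.626). Without control replicate 2 the same comparison gave 2.75 (adjusted p = 0.137), and without PIL replicate 1 it gave 0.10. Isg15, an interferon-stimulated gene named here after its values were seen, was at 48.3 CPM in that control library and at 7.05 and 4.54 CPM in the other controls. Its part in the level of Ccl12 was not tested. For Gsdmd-/- against PIL the value was -3.69 ± 1.24 (edgeR adjusted p = 0.176), and Gsdmd-/- against control gave -2.86 ± 1.23 (edgeR adjusted p = 0.325).

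**Figure D2:**
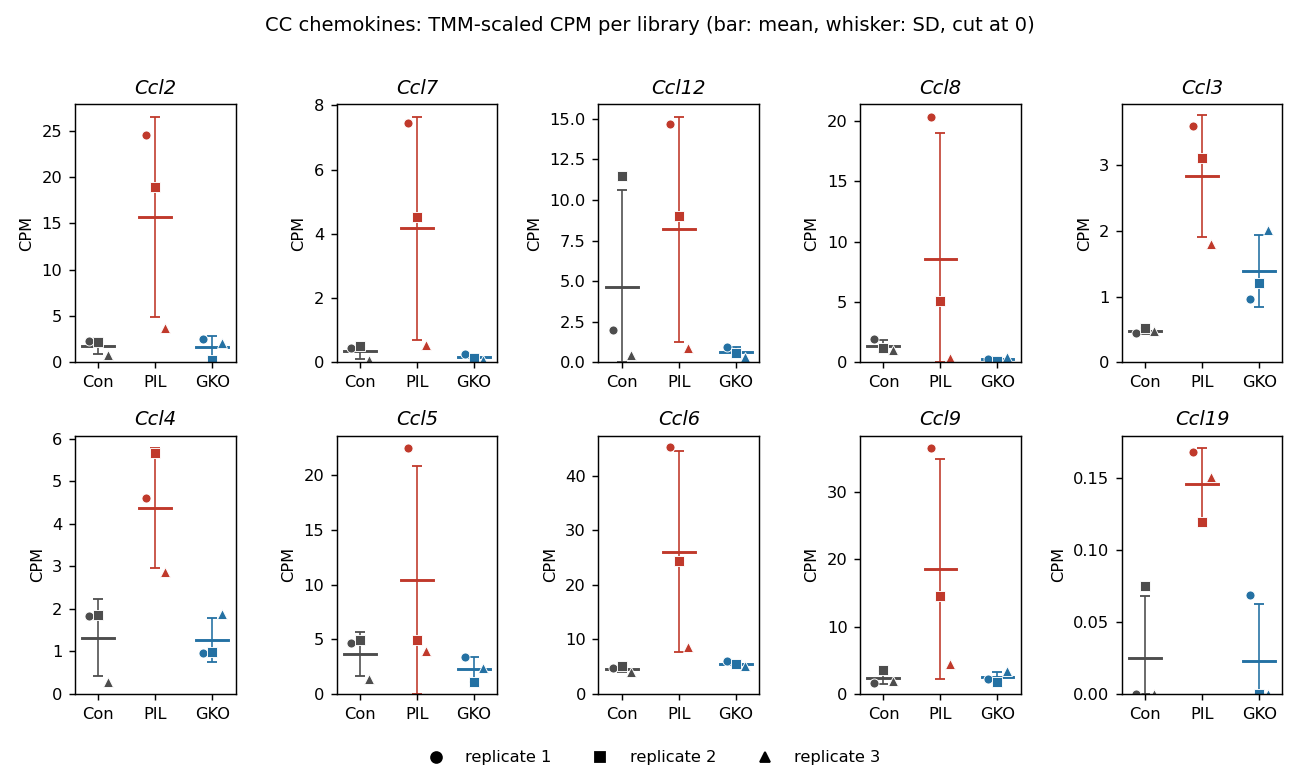
TMM-scaled CPM (vertical axis, linear, a scale of its own for each gene) of the CC chemokines in each library of the Con, PIL and GKO groups, with symbols for the replicate, a bar for the mean and a whisker for the SD, cut at 0. PIL replicate 1 (circle) is the highest of the 9 libraries for 9 of the 10 genes, and PIL replicate 3 (triangle) is the lowest PIL library for 9 of the 10.

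Ccl8 (ENSMUSG00000009185) lies next to Ccl12 and encodes MCP-2, which in the mouse acts through CCR8. Its raw counts were 26, 16 and 15 in control, 363, 85 and 5 in PIL and 4, 2 and 7 in Gsdmd-/- libraries. On the CPM scale these were 1.91, 1.19 and 1.02 in control, 20.3, 5.07 and 0.376 in PIL and 0.274, 0.151 and 0.468 in Gsdmd-/- libraries. PIL replicate 3 lay under every control library, while PIL replicate 1 was 54.1 times as high as PIL replicate 3, the widest ratio of the 10 genes. PIL against control gave 2.65 ± 1.0 on the log2 scale (edgeR adjusted p = 0.128), which was 1.0 without PIL replicate 1. Gsdmd-/- against PIL gave the most negative value of the 8 genes tested, -4.80 ± 1.18 (edgeR adjusted p = 0.13), and -3.15 without PIL replicate 1. Gsdmd-/- against control gave -2.15 ± 1.23 (edgeR adjusted p = 0.495), with every Gsdmd-/- library under every control library.

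Ccl3, Ccl4 and Ccl5 attract monocytes and effector T cells, and Ccl3 and Ccl5 are ligands of CCR1. Ccl3 (ENSMUSG00000000982) encodes MIP-1alpha, made by activated macrophages and lymphocytes. It was at 0.441, 0.522 and 0.474 CPM in control, 3.59, 3.10 and 1.80 CPM in PIL and 0.959, 1.21 and 2.01 CPM in Gsdmd-/- libraries. The control libraries were tightly grouped under all others, and Gsdmd-/- replicate 3 exceeded PIL replicate 3. Raw counts were 6 or 7 in the control libraries and 14 to 64 in the others. Ccl3 rose by 2.55 ± 0.43 on the log2 scale in PIL kidneys (edgeR adjusted p = 0.0121), and this call held in 14 of 17 settings. It was lost without control replicate 1 (adjusted p = 0.0582) or PIL replicate 2 (adjusted p = 0.0507). Its value in Gsdmd-/- against PIL was -1.02 ± 0.39 (edgeR adjusted p = 0.198), and Gsdmd-/- against control gave 1.53 ± 0.44 (edgeR adjusted p = 0.121).

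Ccl4 (ENSMUSG00000018930), which encodes MIP-1beta, was at 1.84, 1.87 and 0.271 CPM in control, 4.6, 5.66 and 2.86 CPM in PIL and 0.959, 0.984 and 1.87 CPM in Gsdmd-/- libraries. All PIL libraries lay above all others, and here PIL replicate 2 was the highest. PIL against control gave 1.73 ± 0.59 on the log2 scale (edgeR adjusted p = 0.0999), Gsdmd-/- against PIL gave -1.77 ± 0.59 (edgeR adjusted p = 0.175), and Gsdmd-/- against control gave -0.04 ± 0.62 (edgeR adjusted p = 0.987). DESeq2 called Ccl4 in PIL against control (adjusted p = 0.0367), as did limma-voom (adjusted p = 0.00476).

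Ccl5 (ENSMUSG00000035042) encodes RANTES, a product of activated T cells and many other cells. It was at 4.63, 4.93 and 1.35 CPM in control, 22.5, 4.89 and 3.91 CPM in PIL and 3.36, 1.06 and 2.34 CPM in Gsdmd-/- libraries. The high PIL mean of 10.4 ± 10.4 CPM came from PIL replicate 1, since the other PIL libraries were within the control range. PIL against control gave 1.53 ± 0.73 on the log2 scale (edgeR adjusted p = 0.209) and 0.27 without PIL replicate 1. Gsdmd-/- against PIL gave -2.21 ± 0.76 (edgeR adjusted p = 0.181) and -0.96 without that library. Gsdmd-/- against control gave -0.68 ± 0.76 (edgeR adjusted p = 0.786).

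Ccl6 and Ccl9 are CCR1 ligands described in rodents and made mainly by myeloid cells. Ccl6 (ENSMUSG00000018927) was at 4.70, 5.07 and 4.06 CPM in control, 45.3, 24.4 and 8.65 CPM in PIL and 6.10, 5.45 and 5.15 CPM in Gsdmd-/- libraries. The 3 groups did not overlap, with control lowest and PIL highest, and the spread within the control and Gsdmd-/- groups was small (SD 0.512 and 0.486 CPM, n = 3) beside that in PIL (SD 18.4 CPM, n = 3). Ccl6 rose by 2.5 ± 0.49 on the log2 scale in PIL kidneys (edgeR adjusted p = 0.0188), a call that held in 13 of 17 settings and was lost without control replicate 1 or 3 or PIL replicate 2 (adjusted p of 0.0585 to 0.0791). In Gsdmd-/- against PIL it was at -2.23 ± 0.48 (edgeR adjusted p = 0.127), and Gsdmd-/- against control gave 0.27 ± 0.49 (edgeR adjusted p = 0.881).

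Ccl9 (ENSMUSG00000019122) was at 1.69, 3.51 and 1.96 CPM in control, 36.5, 14.6 and 4.51 CPM in PIL and 2.19, 1.82 and 3.34 CPM in Gsdmd-/- libraries. Control and Gsdmd-/- libraries were mixed at the low end, and all PIL libraries lay above them. Ccl9 rose by 2.96 ± 0.67 on the log2 scale in PIL kidneys (edgeR adjusted p = 0.0318), a call that held in 7 of 17 settings. With a library left out it held only without PIL replicate 3, and the other 8 gave edgeR adjusted p-values of 0.0531 to 0.125. Gsdmd-/- against PIL gave -2.92 ± 0.67 (edgeR adjusted p = 0.13), and Gsdmd-/- against control gave 0.05 ± 0.69 (edgeR adjusted p = 0.989). Of the 31-base words of Ccl6 and Ccl9 transcripts, 1.28% and 3.80% were also found in transcripts of other genes.

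Ccl19 (ENSMUSG00000071005), a CCR7 ligand of lymphoid stroma, was barely detected. Its raw counts were 0, 1 and 0 in control, 3, 2 and 2 in PIL and 1, 0 and 0 in Gsdmd-/- libraries, and the second Ccl19 entry (ENSMUSG00000094661, scaffold JH584294.1) was at 0 in all 9. With no filter, edgeR gave 2.23 ± 1.21 for PIL against control (adjusted p = 0.288) and -2.27 ± 1.21 for Gsdmd-/- against PIL (adjusted p = 0.331). Of its 31-base words, 63.3% also occur in the transcripts of Ccl19-ps1, Ccl19-ps3, Gm12407 and Gm2564, so its count is uncertain. Of the 6 entries of Ccl21a, Ccl21b and Ccl21c, which encode the other CCR7 ligand, 4 were at 0 in all libraries, and the others (Ccl21a, ENSMUSG00000095320, and Ccl21b, ENSMUSG00000096271) held 0 to 6 and 0 to 3 raw counts. Words shared among the Ccl21 entries were not counted, so their counts are uncertain too. A level of expression under a few reads was not detectable at this depth.

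In the deposited FPKM (fragments per length of the gene and size of the library), which correct for gene length and so allow genes to be compared, the order of the mean level over the 9 libraries was Ccl12 (8.67), Ccl8 (7.16), Ccl6 (7.07), Ccl2 (5.95), Ccl5 (5.90), Ccl4 (3.63), Ccl9 (2.71), Ccl3 (2.11), Ccl7 (2.08) and Ccl19 (0.0772). Within the PIL group the mean FPKM was 18.3 ± 22.4 for Ccl8, 16.5 ± 14.2 for Ccl12, 15.7 ± 11.4 for Ccl6, 14.9 ± 10.5 for Ccl2 and 11.7 ± 12.1 for Ccl5 (SD, n = 3). These SDs are between libraries that all 5 genes share, so they do not measure the spread of a difference between genes, which was not tested. In the control group Ccl12 had the highest mean FPKM, 8.32 ± 10.6, of which control replicate 2 (20.5 FPKM) held the most. In the Gsdmd-/- group Ccl6 was highest at 3.05 ± 0.29 FPKM, above Ccl5 at 2.33 ± 1.22 FPKM, a difference within 1 SD of Ccl5.

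In summed level the PIL libraries differed more from each other than those of the other groups. The 11 entries summed to 180, 90.3 and 27.4 CPM in PIL replicates 1, 2 and 3, to 19.9, 31.4 and 10.5 CPM in the control libraries, and to 17.7, 11.7 and 17.7 CPM in the Gsdmd-/- libraries. PIL replicate 3 lay under control replicate 2. The ratio of PIL replicate 1 to PIL replicate 3 was 54.1 for Ccl8, 16.3 for Ccl12, 14.2 for Ccl7, 8.10 for Ccl9, 6.68 for Ccl2, 5.75 for Ccl5 and 5.24 for Ccl6. It was 1.99 for Ccl3 and 1.61 for Ccl4, so these neighbours were the most even of the genes with more than a few reads. Ccl19 stood at 1.12 on 3 and 2 counts. For single genes the spread in PIL was not always the widest, since the highest control library was 24.2 times the lowest for Ccl12 and 6.89 times for Ccl4, and the highest Gsdmd-/- library was 8.37 times the lowest for Ccl2.

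Calls depended on which libraries and tool were used. In PIL against control, leaving out PIL replicate 3 gave 6 chemokine calls (adding Ccl4, adjusted p = 0.0444, and Ccl8, adjusted p = 0.00704), beside 13.1% of all genes called higher. Leaving out control replicate 1 or PIL replicate 2 gave 0 calls, beside 0.682% and 0.718% of all genes. A fit of only the 6 libraries compared gave 0 calls, beside 0.32% of all genes, and DESeq2 gave 7 of 9 chemokines (beside 8.41%) and limma-voom 5 of 8 (beside 22.8%). In Gsdmd-/- against PIL, leaving out PIL replicate 3 turned 0 calls into 8 of 8, beside 12% of all genes called lower. Without it Ccl6 was at -2.65 (edgeR adjusted p = 0.00422), Ccl9 at -3.37 (edgeR adjusted p = 0.00628), Ccl2 at -3.69 (edgeR adjusted p = 0.0101) and Ccl8 at -5.36 (edgeR adjusted p = 0.0057). The direction of all 8 was the same with every library left out in turn, in PIL against control and in Gsdmd-/- against PIL.

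**Figure D3:**
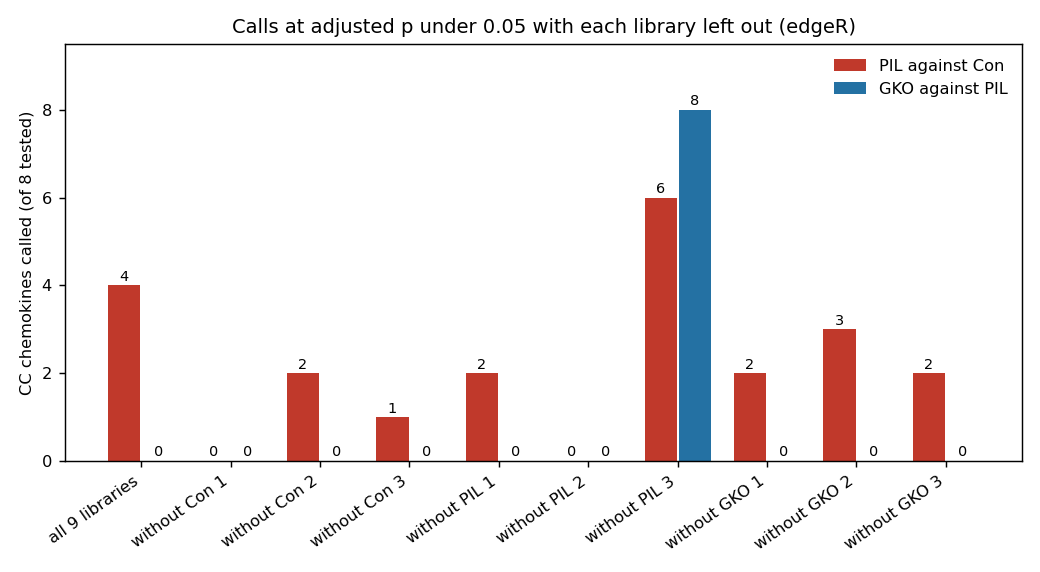
Number of the 8 CC chemokines called by edgeR at an adjusted p under 0.05 (vertical axis) with all 9 libraries and with each library left out in turn (horizontal axis), for PIL against Con (higher) and GKO against PIL (lower). Without PIL replicate 3 the counts were 6 and 8, beside 4 and 0 with all libraries.

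Receptors of these ligands gave 1 call. Of 13 CC receptors, 6 passed the filter (Ccr1, Ccr2, Ccr7, Ccr10, Ccrl2 and Ackr2), and all 6 were higher in the mean in PIL than in control (median log2 fold change 1.53). Ccr2, the monocyte receptor of Ccl2, Ccl7 and Ccl12, was at 11.5, 8.66 and 8.26 CPM in control, 49.5, 35.5 and 17.7 CPM in PIL and 14.5, 15.2 and 13 CPM in Gsdmd-/- libraries. The 3 groups did not overlap, with Gsdmd-/- libraries between the control and PIL libraries. Ccr2 rose by 1.86 ± 0.32 on the log2 scale in PIL kidneys (edgeR adjusted p = 0.013), while Gsdmd-/- against PIL gave -1.27 ± 0.32 (edgeR adjusted p = 0.13) and Gsdmd-/- against control gave 0.59 ± 0.32 (edgeR adjusted p = 0.469). The call was lost without PIL replicate 2 (adjusted p = 0.0533) and in the fit of only 6 libraries (adjusted p = 0.0641).

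Ccr1, the receptor of Ccl3, Ccl5, Ccl6 and Ccl9 on myeloid cells, was at 2.06, 3.96 and 0.542 CPM in control, 7.51, 9.60 and 2.26 CPM in PIL and 2.81, 2.95 and 2.14 CPM in Gsdmd-/- libraries, with PIL replicate 3 inside the range of the other groups. PIL against control gave 1.57 ± 0.66 (edgeR adjusted p = 0.158).

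Ccr7, the receptor of Ccl19 on dendritic cells and naive T cells, was at 0.882, 0.746 and 1.15 CPM in control, 4.82, 1.19 and 1.80 CPM in PIL and 0.343, 0.303 and 0.134 CPM in Gsdmd-/- libraries. The 3 groups did not overlap, and here the Gsdmd-/- libraries were the lowest, under control as well. Gsdmd-/- against PIL gave -3.30 ± 0.64 (edgeR adjusted p = 0.127) and Gsdmd-/- against control gave -1.81 (edgeR adjusted p = 0.231). The atypical receptors, which bind or clear ligand without the usual signalling, were not called by edgeR with all libraries. Ccrl2 was at 5.22, 4.78 and 5.42 CPM in control, 5.44, 9.84 and 8.72 CPM in PIL and 8.43, 8.02 and 10.8 CPM in Gsdmd-/- libraries, so its mean was not lower in Gsdmd-/- than in PIL kidneys (0.18 ± 0.24, edgeR adjusted p = 0.642). Ackr2, a scavenger of CC chemokines, was at 0.294, 0.821 and 0.677 CPM in control and 1.23, 1.85 and 1.58 CPM in PIL libraries (1.36 ± 0.43, edgeR adjusted p = 0.0823). In PIL against control limma-voom called both, Ccrl2 (adjusted p = 0.00478) and Ackr2 (adjusted p = 0.00201), and edgeR called Ccrl2 without PIL replicate 1 (adjusted p = 0.0468). Ccr10, a receptor of skin and mucosal lymphocytes, was at 0.588, 0 and 1.08 CPM in control, 2.41, 2.38 and 0.301 CPM in PIL and 1.10, 0.681 and 0.401 CPM in Gsdmd-/- libraries. Its groups overlapped, and PIL against control gave 1.59 ± 0.94 (edgeR adjusted p = 0.297).

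**Figure D4:**
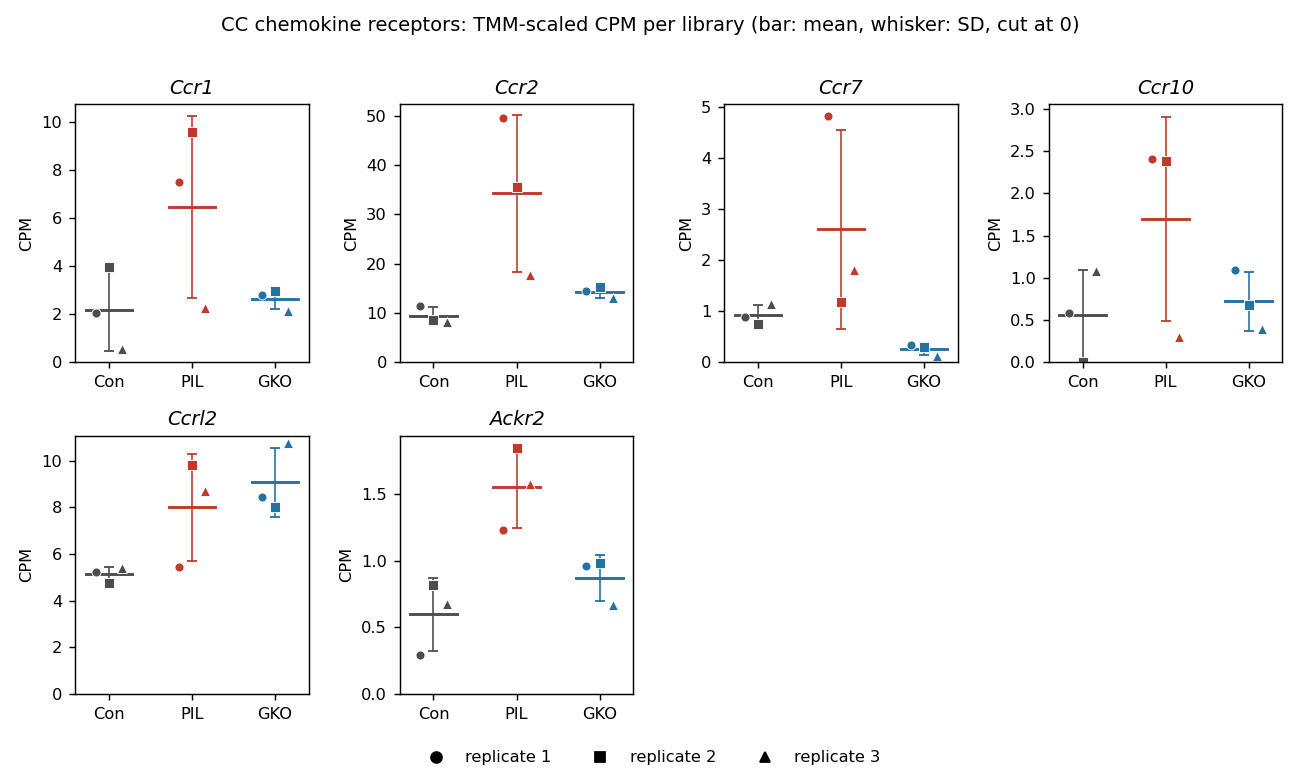
TMM-scaled CPM (vertical axis, linear) of the 6 CC chemokine receptors that passed the filter in each library of the Con, PIL and GKO groups, with symbols for the replicate, a bar for the mean and a whisker for the SD, cut at 0. For Ccr2 and Ccr7 the 3 groups do not overlap, with GKO between Con and PIL for Ccr2 and under both for Ccr7.

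For the 6 receptors in Gsdmd-/- against PIL, edgeR called 0 and gave 2 at an unadjusted p under 0.05, DESeq2 called 2 and limma-voom 5, beside 13%, 4.82% and 22.8% of all genes. Without PIL replicate 3, edgeR called Ccr2 and Ccr7 lower there, and in PIL against control it called Ccr1 (adjusted p = 0.036) beside Ccr2. In Gsdmd-/- against control edgeR and DESeq2 called 0, limma-voom called 2 (Ccr7 lower and Ccrl2 higher), and 1 was higher and 1 lower at an unadjusted p under 0.05, beside the shares of all genes given above for that comparison. The remaining 7 receptors (Ccr3, Ccr4, Ccr6, Ccr8, Ccr9, Ackr1 and Ackr4) were under 1 CPM in every library. Of 14 other CC ligands, 3 passed the filter (Ccl25, Ccl27a and Ccl28) and edgeR called 0 in each comparison, with 0 at an unadjusted p under 0.05. DESeq2 used no filter on low counts, so its calls may be of ligands beyond these 3, and they are not named here. For PIL against control DESeq2 called 1 and limma-voom 0, beside 14.6% and 44.2% of all genes in either direction. For Gsdmd-/- against PIL DESeq2 called 2 and limma-voom 1, beside 5.94% and 45.8%. For Gsdmd-/- against control both called 0, beside 5.47% and 15.6%. In PIL against control the log2 fold change was -0.28 for Ccl25 (edgeR adjusted p = 0.352), 0.16 for Ccl27a (edgeR adjusted p = 0.635) and -0.29 for Ccl28 (edgeR adjusted p = 0.872). Ccl28, a ligand of Ccr10 made by epithelia, ranged from 5.35 to 126 CPM within the control group alone.

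Ccl22, an attractant of Ccr4-bearing T cells that was not tested because it missed the filter, had 183 raw counts in PIL replicate 1 and 1 to 8 in each of the other 8 libraries. The same library held 45 raw counts of Ccl17, which shares that receptor, and 35 of Ccl20, the ligand of Ccr6, while the other libraries held up to 6 and up to 8. These 2 were named after their values were seen. Of the eotaxins, Ccl11 had 6, 9 and 5 raw counts in control, 51, 32 and 7 in PIL and 4, 5 and 0 in Gsdmd-/- libraries, and it was also named after its values were seen. High counts in PIL replicate 1 were thus not limited to the 10 genes.

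For each list of leukocyte markers the highest sum was in a PIL library, as for the chemokines, though not always in the same PIL library. The 15 macrophage and monocyte markers summed to 185 to 520 CPM in control, 467 to 1941 CPM in PIL and 273 to 402 CPM in Gsdmd-/- libraries. In PIL against control 8 of the 15 rose, beside 4.48% of all genes. The median log2 fold change of the 15 was 1.85, beside 0.01 over all genes. In Gsdmd-/- against PIL edgeR called 0 of the 15 (median -2.33, beside -0.00065 over all genes). There 13 were lower at an unadjusted p under 0.05, beside 13% of all genes. DESeq2 called 11 and limma-voom 14, beside 5.94% and 45.8% of all genes in either direction. Without PIL replicate 3 edgeR called 13 of 15 higher and 14 of 15 lower in these comparisons, beside 13.1% and 12% of all genes. That library had the lowest sum of these markers in the PIL group, 467 CPM. Calls with any other library left out are not given for the marker lists. The sum of the CC chemokines per 100 CPM of these markers, a measure chosen after the data had been seen, was 5.50, 6.04 and 5.68 CPM in control, 9.26, 6.86 and 5.86 CPM in PIL and 5.08, 4.30 and 4.41 CPM in Gsdmd-/- libraries. Against the markers, only PIL replicates 1 and 2 were above the control range, and all 3 Gsdmd-/- libraries were under it. The part of macrophages and monocytes in the chemokine levels was not tested.

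**Figure D5:**
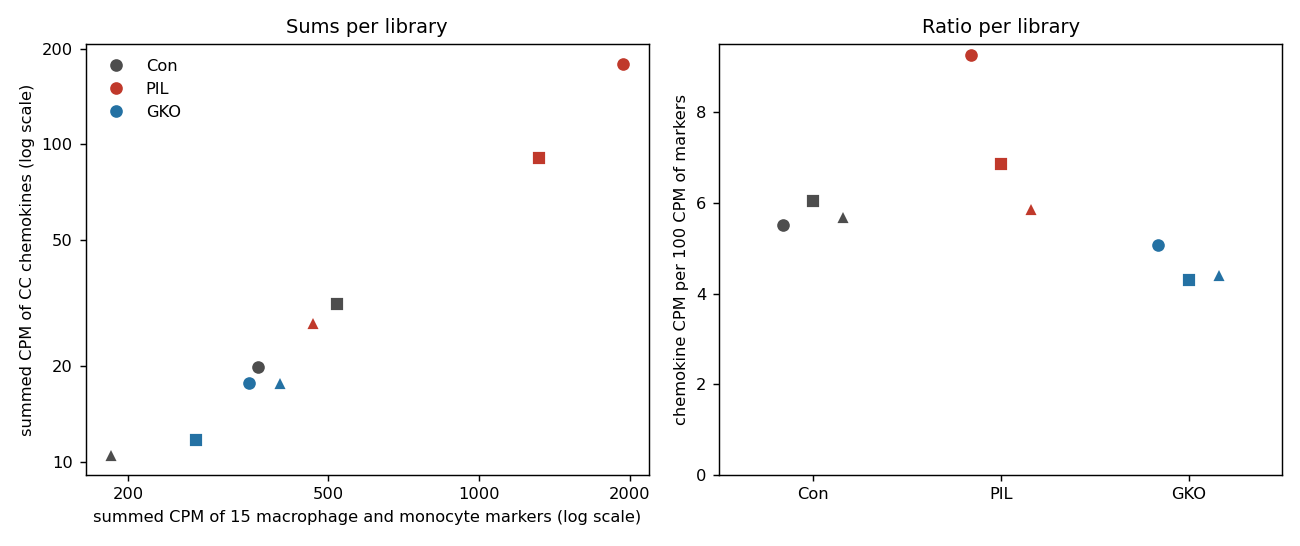
Left, summed CPM of the CC chemokines (vertical axis, log scale) against summed CPM of 15 macrophage and monocyte markers (horizontal axis, log scale) in each of the 9 libraries. Right, chemokine CPM per 100 CPM of these markers (linear axis from 0) in each library, with PIL replicate 1 highest at 9.26 and the GKO libraries lowest at 4.30 to 5.08.

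T and NK cell markers (11 of 12 in the table) summed to 7.99 to 27.8 CPM in control, 18.7 to 56.5 CPM in PIL and 6.28 to 12.5 CPM in Gsdmd-/- libraries, highest in PIL replicate 1, the library with the high Ccl5. Of 9 tested in PIL against control, edgeR called 0, with 1 at an unadjusted p under 0.05, 1 by DESeq2 and 2 by limma-voom. Between Gsdmd-/- and PIL kidneys edgeR called 0 of the 9, with 5 lower at an unadjusted p under 0.05, 3 called by DESeq2, 5 by limma-voom and 3 by edgeR without PIL replicate 3. Of all genes in PIL against control, edgeR called 4.48% higher, and 15.4% were higher at an unadjusted p under 0.05. In either direction DESeq2 called 14.6% and limma-voom 44.2% there. In Gsdmd-/- against PIL 13% of all genes were lower at an unadjusted p under 0.05. In either direction DESeq2 called 5.94%, limma-voom 45.8% and edgeR without PIL replicate 3 called 22% of them. These shares also apply to the lists below. B and plasma cell markers summed to 25.5 to 38.1 CPM in control, 105 to 733 CPM in PIL and 52.7 to 114 CPM in Gsdmd-/- libraries, and 3 of 7 rose in PIL against control. Most of the PIL sums was Jchain, an antibody joining chain of plasma cells (539, 680 and 81.7 CPM). Dendritic cell markers, a list that includes Ccr7, summed to 25 to 26.4 CPM in control, 39.3 to 82.6 CPM in PIL and 25.6 to 31.8 CPM in Gsdmd-/- libraries, and 1 of 6 rose in PIL against control. Neutrophil markers summed to 5.08 to 45.7 CPM in control, 13.5 to 83.2 CPM in PIL and 5.55 to 10.7 CPM in Gsdmd-/- libraries, and the defining marker Ly6g was at 0 in 5 of the 9 libraries. Of 6 tested in PIL against control, edgeR, DESeq2 and limma-voom called 0, with 0 at an unadjusted p under 0.05. Between Gsdmd-/- and PIL kidneys edgeR called 0 of the 6 neutrophil markers, with 4 lower at an unadjusted p under 0.05, 2 called by DESeq2, 5 by limma-voom and 3 by edgeR without PIL replicate 3. The lymph node list summed to 3.16 to 3.96 CPM in control, 7.06 to 41.8 CPM in PIL and 6.59 to 7.96 CPM in Gsdmd-/- libraries, and Cxcl13 held 39.9 of the 41.8 CPM in PIL replicate 2. Of 2 tested in PIL against control, Cxcl13 rose (log2 fold change 3.87, edgeR adjusted p = 0.0286) and Cr2 was at -0.37 (edgeR adjusted p = 0.632). The node marker Ccl21a was at or under 0.448 CPM in every library. Sequence shared among the Ccl21 entries was not checked, so this value does not show that the gene was silent. Fat markers summed to 5.07, 0.299 and 65.3 CPM in control replicates 1, 2 and 3. The sums were 0.775 to 0.977 CPM in PIL and 0.378 to 6.35 CPM in Gsdmd-/- libraries. Control replicate 3, with the high fat sum, was alone the lowest control library for 7 of the 10 chemokines. Of 2 fat markers tested in PIL against control, edgeR called 0, while DESeq2 and limma-voom called 1 each. Both were lower at an unadjusted p under 0.05, as were 12.2% of all genes. The part of these cell types in the chemokine levels was not tested.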

How the data were processed

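Kidney RNA was isolated with TRIzol and paired-end sequenced (Illumina Novaseq6000). Reads were aligned by the authors to mm10 with Hisat2 (TopHat2 files are also named) and counted them per gene with HTSeq; versions and the strand setting of the counting are not given in the sources used here. The read counts deposited by the authors are raw counts per gene. The FPKM values deposited by the authors are these counts divided by gene length and library total, and served only to compare genes. Groups follow the labels.

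Genes were filtered with edgeR's filterByExpr (14069 of 21935 kept), scaled by TMM and compared over all 9 libraries by the quasi-likelihood F-test of edgeR (robust, 6 residual degrees of freedom), adjusted by Benjamini-Hochberg; standard errors were derived from the F statistic. Tools were edgeR 4.0.16, DESeq2 1.42.0 and limma 3.58.1 in R 4.3.3. The fit was tested on simulated data. Alternatives were no filter, scaling by RLE or upper quartile, a block on replicate number, limma-voom with quality weights, DESeq2, only the 6 libraries compared, each library left out, and an adjusted p under 0.1.

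The 10 genes and the lists of receptors, other ligands and cell markers were chosen with earlier results of these data known. All 10 members are named. Of the other ligands and receptors, those called by edgeR with all libraries or with at least 20 counts on average are named. Those said to be named after their values were seen are added. Receptors that passed the filter are described too, and 1 further receptor is not reported here. Gm17268, which overlaps Ccl2 on the other strand, had 0 counts in all libraries.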

Additional observations from a re-analysis of the deposited data

How the results depend on the processing

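Of the single-gene fold changes of the 8 chemokines under the alternatives, 96 kept their direction and side of the threshold in PIL against control (27 lost and 5 gained a call), 108 did in Gsdmd-/- against PIL (20 gained one) and 116 did in Gsdmd-/- against control. The 12 others there changed sign without a call, namely Ccl4 and Ccl2 with the replicate block (0.14 and 0.049) and, with a library left out, Ccl4 (-0.53 to 0.29), Ccl2 (-0.50 to 0.40) and Ccl9 (-0.25 to 0.43). In PIL against control the chemokine calls, 4 in all, were 7 with DESeq2, 0 with only the 6 libraries compared and 0 to 6 with a library left out, and the receptor calls, 1 in all, were 5 with limma-voom, 0 with only 6 libraries, 2 at an adjusted p under 0.1 and 0 to 2 with a library left out. In Gsdmd-/- against PIL the chemokine calls, 0 in all, were 6 with DESeq2, 7 with limma-voom and 0 to 8 with a library left out, and the receptor calls, 0 in all, were 2, 5 and 0 to 2. In Gsdmd-/- against control the receptor calls were 2 with limma-voom, 1 with only 6 libraries and 0 to 1 with a library left out. Where no value is given, the cause was not tested. Ccl7 and Ccl19 did not pass the filter, with 7 and 2 counts in PIL replicate 3, which limits what can be said of them.

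With the replicate number as a block, 2 chemokines were called in PIL against control in place of 4. The numbers were not taken as pairs, since the deviations of same-numbered libraries correlated at -0.03, 0.19 and 0.29 in PIL against control, and not every library correlated best with its own number.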
